A study of Mus musculus with 8 samples.

Results

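Read pairs with both ends in the same 50 kb bin are the shortest contacts that a Hi-C matrix at this resolution holds. They lie on its diagonal, the class of entries that the study set aside when it called differential interactions. The diagonal entries of autosomal bins were read from all 8 libraries, and each was divided by all contacts of that bin on its own chromosome (cis contacts, within-bin pairs counted once). This percentage is called the within-bin share here. The matrices hold 53357 bins, of which 48088 lie on the 19 autosomes. A total of 756 autosomal bins were left out, 149 with over 10% undetermined sequence, 599 with unusual interchromosomal coverage and 8 with under 100 cis contacts in a library, so 47332 bins are described.

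The cells were mouse splenic B cells isolated by negative selection and cultured with 25 µg/ml LPS, a component of the bacterial outer membrane that makes B cells divide. Each of 4 groups had 2 biological replicates, collected after 3 h, after 10 h, after 33 h just before the first division (imminent division) or after 33 h before DNA synthesis (pre-S). The first 3 groups came from male C57BL/6 mice and were sorted as CD69+ cells with the highest CellTrace Violet (CTV), a dye that is diluted at each division. The pre-S cells came from C57BL/6 FUCCI mice, which carry the cell cycle reporters mKO2 and mAG, and were sorted as CD69+ CTV-highest mAG- mKO2-high cells. Strain and gate therefore cannot be told apart from the pre-S group. Hi-C holds no expression, so the identity of the cells could not be checked against markers here.

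In situ Hi-C joins DNA ends that lie near each other in the nucleus, and contacts become rarer as the distance along the chromosome grows. Within-bin pairs record folding over distances of up to about 50 kb, the scale of nucleosome fibres, short genes and the nearest enhancers. They also take up ligation products of neighbouring or undigested fragments, which is why they are often left out. Active chromatin (the A compartment) and inactive chromatin (the B compartment) differ in base composition, gene density and folding, so a share was described by these features as well as by group.

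The bins follow the cutting sites of MboI, which cuts before GATC, so every bin starts at such a site and the number of fragments differs between bins. The first 150 bases of 5 bins to which the results below return are printed from GRCm38, the assembly that mm10 names, on the forward strand, with each MboI site in capitals. The first lies in an intron of Ripor2 (chr13:24599935-24600084). The other 4 are intergenic and start the bin beside Bach2 (chr4:32149861-32150010), the bin with the start of Vmn2r-ps159 (chr4:156306042-156306191), the bin with the start of Samd9l (chr6:3349828-3349977) and the first of a run of 5 bins of chromosome 15 (chr15:69601058-69601207). The Vmn2r-ps159 stretch holds 4 sites, the chromosome 15 stretch 2, and each of the other stretches only the site at which its bin starts.
Ripor2 bin: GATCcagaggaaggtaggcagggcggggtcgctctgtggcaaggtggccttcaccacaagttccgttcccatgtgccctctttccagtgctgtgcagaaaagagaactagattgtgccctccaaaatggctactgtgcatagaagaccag
Bin beside Bach2: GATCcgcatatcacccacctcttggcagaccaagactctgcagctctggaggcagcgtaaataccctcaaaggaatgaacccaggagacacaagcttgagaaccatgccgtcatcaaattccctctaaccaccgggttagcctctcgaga
Vmn2r-ps159 bin: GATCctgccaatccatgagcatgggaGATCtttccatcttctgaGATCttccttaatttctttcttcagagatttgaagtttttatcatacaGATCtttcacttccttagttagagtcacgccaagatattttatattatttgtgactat
Samd9l bin: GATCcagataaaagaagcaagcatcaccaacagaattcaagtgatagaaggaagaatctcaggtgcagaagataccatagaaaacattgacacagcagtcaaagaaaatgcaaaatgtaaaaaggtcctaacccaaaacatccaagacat
First bin of the chromosome 15 run: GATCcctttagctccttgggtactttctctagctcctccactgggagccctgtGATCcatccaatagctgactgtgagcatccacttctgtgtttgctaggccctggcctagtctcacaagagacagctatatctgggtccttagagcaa

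Autosomal cis pairs ranged from 62800690 to 147630260 per library, and the median within-bin count of a bin from 160 to 321. The between-replicate spread of single bins was close to counting error once the difference between the 2 libraries as a whole was taken out. That difference itself, which was largest between the 10 h libraries, is not part of the values that follow. The chi-square per bin, 1 where only counting error acts, was 1.04 ± 0.00682 (SE) between the 3 h libraries, 1.01 ± 0.00666 between those of 10 h, 1.04 ± 0.00671 between those of imminent division and 1.02 ± 0.00667 between those of pre-S. The order of bins was much the same in all libraries, with Spearman's rho over the described bins from 0.787 to 0.885 between 2 libraries (bins are not independent, and all share 1 genome and 1 protocol). A p-value of the exact permutation test below rests on the spread between 2 cultures a group. The edgeR p-value of a single bin rests mostly on a spread pooled over bins. In the fit with each library centred on its median bin, its median prior degrees of freedom were 539. The common dispersion of that fit was 9.77e-05, close to counting error.

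At imminent division the within-bin share was lower than in every other library. Both ends fell in 1 bin in 12.6% and 12.8% of autosomal cis pairs in the 3 h libraries, 12.3% and 11.5% in those of 10 h, 9.96% and 10.04% in those of imminent division, and 12.2% and 11.7% in those of pre-S. The imminent division libraries lay below the other 6, and the pre-S libraries overlapped those of 10 h. The median bin had a share of 6.45% and 6.56% in the 3 h libraries, 6.23% and 5.85% in those of 10 h, 5.05% in both of imminent division, and 6.26% and 5.98% in those of pre-S. The 10 h replicates differed by more than the imminent division replicates did, and both 3 h libraries lay above both 10 h libraries. With all 4 groups in an exact permutation test over the 105 ways to divide 8 libraries, p was 0.0476 for the pooled share (adjusted p = 0.0952 over 8 measures) and 0.0381 for the median (adjusted p = 0.0952), so neither passed the correction. The smallest p that the test allows is 0.00952, and 2 libraries against 2 cannot go below 0.333.

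The ratio to the next class of contacts separated the imminent division libraries more widely. On the log2 scale, summed within-bin pairs over summed pairs of adjacent bins came to 0.47 and 0.48 in the 3 h libraries, 0.39 and 0.35 in those of 10 h, 0.06 and 0.05 in those of imminent division, and 0.35 and 0.36 in those of pre-S (exact permutation p = 0.0286, adjusted p = 0.0952). The share of adjacent-bin pairs themselves differed little, with 9.15% ± 0.0746 of cis pairs for 3 h, 9.19% ± 0.233 for 10 h, 9.63% ± 0.103 for imminent division and 9.32% ± 0.285 for pre-S (SD, n = 2). Pairs between 100 kb and 1 Mb took 22.9% ± 0.132 at 10 h and 29.2% ± 0.125 at imminent division, while pairs over 2 Mb took 50.5% ± 0.813 and 44.9% ± 0.0585. Within 2 Mb alone, the share of within-bin pairs was 24.1% at 10 h and 18.1% at imminent division (group means), and the 4 groups passed the exact permutation test (adjusted p = 0.0327).

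**Figure D1:**
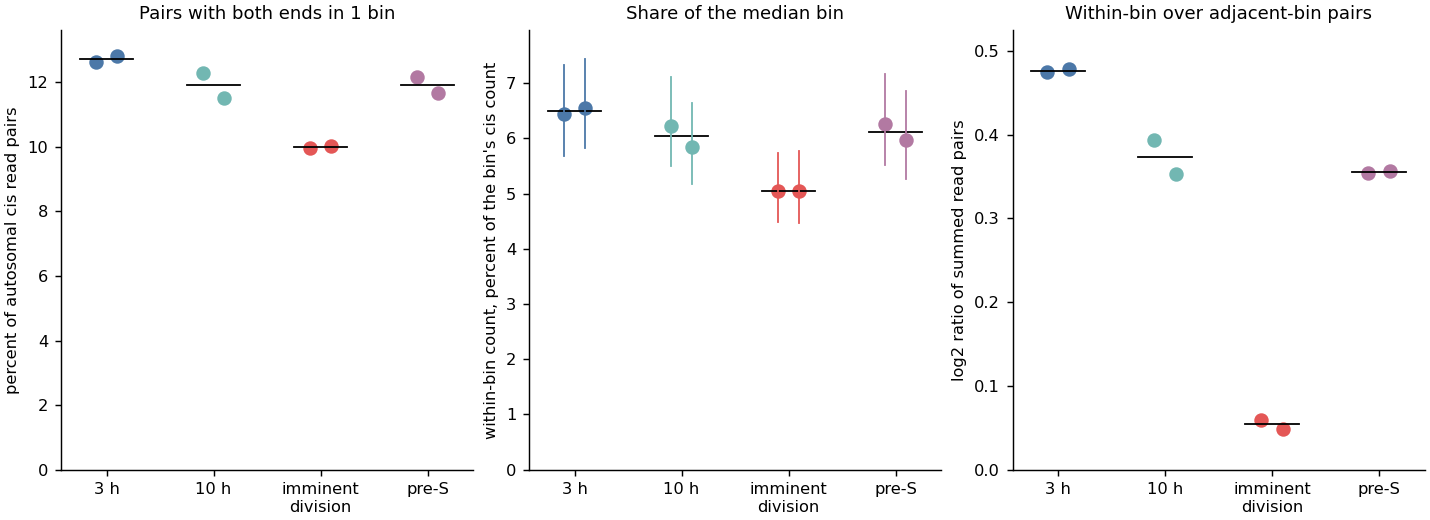
Within-bin contacts in the 8 libraries, by group on the x axis: the percent of autosomal cis read pairs with both ends in 1 bin (left), the share of the median bin in percent of its cis count with lines from the first to the third quartile of bins (middle), and the log2 ratio of within-bin to adjacent-bin pairs (right). Points are libraries and black bars group means of 2, and in each panel both imminent division points lie below the other 6, with a log2 ratio of 0.06 and 0.05.

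Nearly all bins took part in this. The group mean share was lower at imminent division than at 10 h in 46384 of 47332 bins (98.0%), and both imminent division libraries lay below both 10 h libraries in 40336 bins (85.2%) against 207 (0.437%) in which they lay above. In 36441 bins (77.0%) they lay below all other 6 libraries, and in 9 bins above all 6. On the share as measured, the edgeR quasi-likelihood test called 29326 bins at a false discovery rate (FDR) under 5%, which is 62.0% of those tested, 20 raised and 29306 lowered. Against pre-S it called 33625 bins (71.0%), 9 raised and 33616 lowered. Each of these bins shares the same 4 libraries, so the exact test above, and not the number of bins, is the test of the overall shift.

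In the comparisons without imminent division the shift was smaller. Between 3 h and 10 h the median log2 ratio over bins was -0.10, and the group mean was lower at 10 h in 84.6% of bins. The test on the share as measured called 98 bins (0.207%), all of them lowered. Between 10 h and pre-S the median log2 ratio was 0.02, with both pre-S libraries above both 10 h libraries in 21.8% of bins and below in 13.1%, and 9 bins (0.0190%) were called. The median log2 ratio of imminent division to 10 h was -0.26, with the middle of the bins, from the first to the third quartile, between -0.34 and -0.18.

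**Figure D2:**
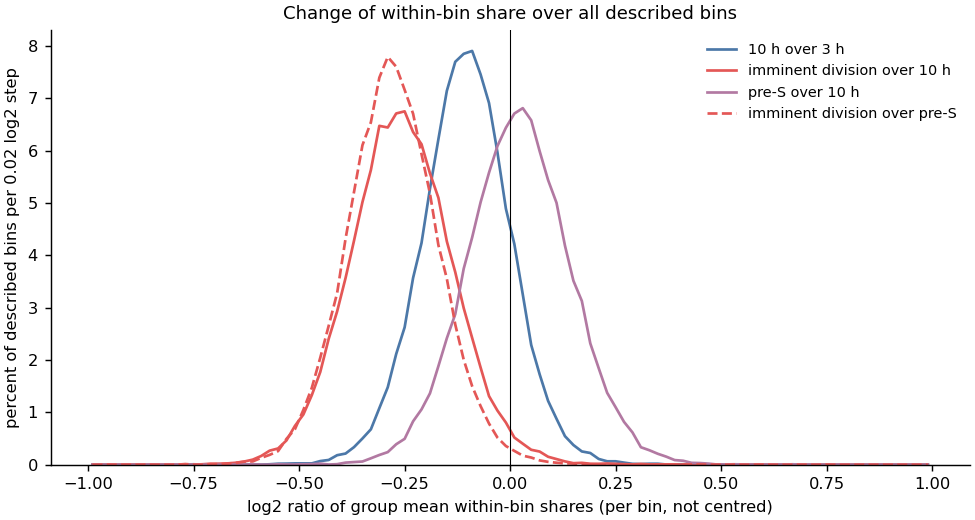
Distribution over the 47332 described bins of the log2 ratio of group mean within-bin shares (x axis, not centred) in 4 comparisons, as percent of bins per 0.02 log2 step (y axis). The 2 curves of imminent division lie to the left of 0, with medians of -0.26 over 10 h and -0.28 over pre-S, the curve of 10 h over 3 h is centred at -0.10 and that of pre-S over 10 h at 0.02.

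Over all bins, the number of MboI fragments went with small differences in share. In the quintile of bins with the fewest fragments (a median of 104) the median share averaged 5.74% over the 8 libraries, in the middle quintile (123) 6.09% and in the quintile with the most (147) 5.78%. The difference between the top and bottom quintiles, on the log2 scale, was 0.03 and 0.02 in the 3 h libraries, 0.02 in both of 10 h, 0.01 in both of imminent division, and -0.01 in both of pre-S. Both pre-S libraries were below the other 6 in this difference, which took the smallest p that the exact permutation test allows (0.00952, adjusted p = 0.0762). With the denominator limited to 2 Mb the difference was 0.12 for 3 h and 10 h, 0.08 for imminent division and 0.09 for pre-S. The quintiles also differed in compartment, with 51.4% of bins in A in the lowest and 31.2% in the highest. Within A the mean share ran from 6.22% in the lowest quintile to 6.85% in the fourth and 6.64% in the highest.

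GC content and gene starts went with larger differences among bins. The quintile of bins with the lowest GC (a median of 37.1%) had a mean share of 5.64%, and the quintile with the highest GC (47.7%) had 6.75%. The log2 difference between these quintiles was 0.27 and 0.26 in the 3 h libraries, 0.30 and 0.28 in those of 10 h, 0.23 and 0.25 in those of imminent division, and 0.25 and 0.21 in those of pre-S (exact permutation p = 0.0762, adjusted p = 0.122). Every library had more within-bin contacts, as a share, in bins of high GC, and the 4 groups did not differ beyond their spread by this test. The share averaged 5.77% in the 34027 bins without a protein-coding start, 6.27% in the 8841 with 1, 6.86% in the 4233 with 2 to 4, and 8.11% in the 231 with 5 or more. The log2 difference between the last class and the first was 0.50 ± 0.02 for 3 h, 0.50 ± 0.01 for 10 h, 0.47 ± 0.00293 for imminent division and 0.48 ± 0.02 for pre-S (SD, n = 2) (exact permutation p = 0.286, adjusted p = 0.327).

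The step with gene starts was larger in A than in B in each library. Compartments were set from all libraries together. The 21642 A bins had a mean share of 6.58% and the 25569 B bins 5.53%. In A, bins with 2 or more starts exceeded bins without a start by 0.16 to 0.19 on the log2 scale in the 8 libraries. In B the same difference ran from -0.02 to 0.05, and the highest were the 2 imminent division libraries at 0.05 and 0.05. The 213 A bins with 5 or more starts had shares of 9.14% ± 0.222 at 3 h and 6.96% ± 0.000377 at imminent division (SD, n = 2), whereas the 17 such bins of B had 6.01% ± 0.0853 and 5.16% ± 0.0341. B bins without a start had 6.09% ± 0.0760 and 4.70% ± 0.01996, with 4.68% at imminent division in the 2587 B bins with 1 start and 4.85% in the 718 with 2 to 4. Whether this step differed between A and B was not tested. The log2 difference in median share between A and B did not pass over the 4 groups (exact permutation p = 0.114, adjusted p = 0.152). The starts counted here are annotated protein-coding genes, whether or not they were transcribed in these cells.

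These differences between classes turned on the denominator. Counted against cis contacts within 2 Mb only, A minus B was -0.16 for 3 h, -0.17 for 10 h, -0.02 for imminent division and -0.13 for pre-S on the log2 scale, where it had been 0.23, 0.25, 0.26 and 0.26 against all cis contacts. The difference between bins with 5 or more starts and none was -0.03, -0.04, 0.16 and 0.03 in the same order, and that between the top and bottom GC quintiles was -0.01, -0.04, 0.03 and -0.06 (exact permutation, adjusted p = 0.0381). Set against the contacts of a bin with its 2 neighbours, the within-bin count was lower in A (log2 ratio -0.59 at 3 h and -1.0 at imminent division) than in B (-0.42 and -0.87). B bins thus had the higher within-bin share of nearby contacts and the lower share of all cis contacts.

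Shares were higher on chromosomes with fewer bins. The median share ran from 5.89% on chromosome 1 to 8.04% on chromosome 19 at 3 h, and from 4.53% to 6.35% on the same chromosomes at imminent division. Across the 19 autosomes, Spearman's rho between the number of described bins and the share was -0.958 for 3 h, -0.944 for 10 h and -0.919 for both imminent division and pre-S. The share by chromosome was not measured with another denominator, and this is a description across chromosomes of the same libraries. Bins near an end of the assembled chromosome had higher shares, at 8.10% ± 0.117 (SD, n = 2) at 3 h in the first 1 Mb and 7.40% ± 0.0640 in the last 1 Mb, against 6.49% ± 0.0777 elsewhere. At imminent division these were 6.78% ± 0.0223, 6.15% ± 0.00761 and 5.04% ± 0.000369.

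**Figure D3:**
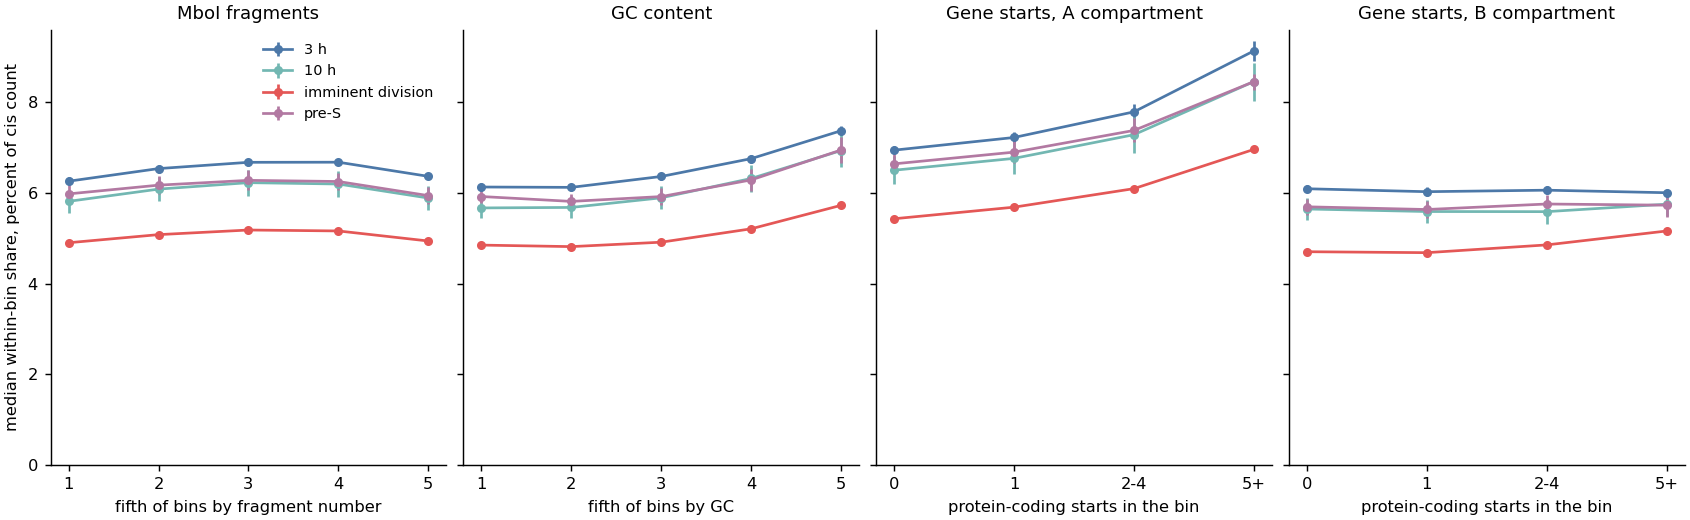
Median within-bin share (y axis, percent of the cis count of the bin) for quintiles of bins by MboI fragment number and by GC, and for classes of protein-coding starts within the A and within the B compartment. Points are group means of 2 libraries with SD, and the imminent division line is lowest in every class, running from 5.43% without a start to 6.96% with 5 or more in A and from 4.70% to 5.16% in B.

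Against all cis contacts, the change from 10 h to imminent division differed little between most classes. The log2 change of the class median lay between -0.25 and -0.26 in the fragment quintiles, between -0.23 and -0.28 in the GC quintiles and between -0.25 and -0.29 in the classes of gene starts, and was -0.25 in A and -0.26 in B. Among gene start classes split by compartment, the smallest changes were in B. They were -0.20 with 2 to 4 starts (718 bins) and -0.16 with 5 or more (17 bins). Bins near a chromosome end also fell less. The first 1 Mb went from 7.49% at 10 h to 6.78% at imminent division and the last 1 Mb from 6.88% to 6.15%. Elsewhere the share went from 6.03% to 5.04%. Against contacts within 2 Mb the classes did change by different amounts, since A minus B moved by 0.15 and the gene start difference by 0.19 (exact permutation over the 4 groups, adjusted p = 0.0327 for each).

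Bins that departed from the shift of the median bin were then sought. Each library was centred on its median log share, so that raised and lowered below mean relative to the typical bin of the library. Between 10 h and imminent division 476 bins passed (FDR under 5%, edgeR quasi-likelihood test), 1.01% of those tested, of which 236 were raised (0.499%) and 240 lowered (0.507%). Their median change was 0.33 for raised and 0.30 for lowered bins on the log2 scale, and no called bin changed by less than 0.21. The split was 204 to 120 when the centring followed GC and fragment number, 4065 to 1457 when the offset was taken from contacts within 2 Mb, 47 to 23 when it was taken from neighbouring bins, 2421 to 3910 when within-bin counts were scaled with TMM factors without the cis total (2402 to 3905 with DESeq2 size factors), and 3 to 0 with the DESeq2 Wald test on the same offsets. Leaving out 1 library of these 2 groups left between 48 calls (without 10 h replicate 2) and 159 (without imminent division replicate 2), with 133 without 10 h replicate 1 and 122 without imminent division replicate 1.

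Lowered bins were rich in GC and raised bins were not. The median GC was 45.3% in lowered bins and 40.4% in raised bins, against 41.4% in all described bins. In the top quintile by GC, 113 of 9467 bins were lowered and 33 raised, and in the bottom quintile 1 was lowered and 52 raised. Both kinds lay in A more often than the described bins did (68.2% of raised, 71.2% of lowered and 45.7% of all), and 45.8% of raised, 28.8% of lowered and 28.1% of all held a protein-coding start. The lowered bins had high shares at 3 h, with a median of 8.29% against 6.50% for all bins. The 3 h libraries are outside this comparison, but the order of bins was much the same in all libraries. The selection therefore bears on this value too. At 10 h they had 8.28% against 6.03%, which the selection fixed in part, and at imminent division 5.62% against 5.05%. Raised bins were above all bins too, with 6.94% at 3 h, 6.11% at 10 h and 6.48% at imminent division. By mean share over the 8 libraries, the median percentile was 73.9 for raised and 88.0 for lowered bins. How far this and the excess in A follow from the selection was not tested. The centring that removed the GC trend kept 113 of the 240 lowered bins and 171 of the 236 raised bins, and the offset within 2 Mb kept 75 and 157. With that offset 179 of the 240 lowered bins kept their sign and 1 was called raised. The offset from neighbouring bins kept 3 lowered and 9 raised bins as calls, with the sign kept in 186 and 211.

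Of the 3 most significant lowered bins, 1 lies inside a gene and the other two overlap no protein-coding gene. A bin inside Ripor2, which encodes an inhibitor of the small GTPase RhoA, had shares of 11.4% and 12.2% for 3 h, 12.3% and 11.3% for 10 h, 7.43% and 7.71% for imminent division, and 11.2% and 10.8% in pre-S. Its 2 imminent division values were the only ones below 10% (centred log2 change -0.37 against 10 h, edgeR FDR 2.37e-06). The bin next to that of the Bach2 start had 9.45% and 9.60%, then 10.5% and 8.81%, then 5.87% and 6.03%, and in pre-S 8.88% and 8.29% (log2 change -0.43, edgeR FDR 9.68e-06). A bin of chromosome 7 without a protein-coding gene (chr7:63999947-64050215) had 10.2% and 10.5%, 10.4% and 9.78%, 5.91% and 6.61%, and 8.76% and 8.82% (log2 change -0.42, edgeR FDR 6.51e-06). In each of them the imminent division libraries lay below the other 6, as in 77.0% of all described bins. With the offset from contacts within 2 Mb none of the 3 passed (edgeR FDR 0.622 for Ripor2, 0.767 beside Bach2 and 0.350 on chromosome 7), and the Ripor2 bin had a log2 change of 0.05.

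The 3 most significant raised bins had a higher share at imminent division than at 10 h even as measured. All 3 lie near the far end of their chromosome, where bins as a class fell less from 10 h than elsewhere. The part of this position in the result was not tested. The bin with the start of Vmn2r-ps159, of the pheromone receptor family of the vomeronasal organ, had 5.17% and 5.42% for 3 h, 5.19% and 5.01% for 10 h, 7.23% and 7.27% for imminent division, and 6.33% and 7.14% in pre-S (log2 change 0.76 against 10 h, edgeR FDR 2.66e-09). All 4 libraries of 33 h were above all 4 earlier ones. The bin with the start of Mucl2, a mucin-like gene, had 7.73% and 7.65%, 6.73% and 6.51%, 8.10% and 8.25%, and 7.92% and 8.43% (log2 change 0.56, edgeR FDR 1.26e-09). A bin of chromosome 11 without a protein-coding gene (chr11:121749757-121799946) had 8.05% and 8.20%, 7.36% and 6.66%, 7.91% and 8.79%, and 9.07% and 8.44% (log2 change 0.52, edgeR FDR 1.26e-09). These were the 3 bins that passed with the DESeq2 Wald test (adjusted p 0.0237, 0.0175 and 0.0180). Their interchromosomal counts were 1.96, 2.84 and 1.78 times the median bin's, and the part of this in the result was not tested. The 3 leading lowered bins were above the median bin as well, at 1.99 (Ripor2), 1.55 (beside Bach2) and 1.41 (chromosome 7). With the offset within 2 Mb the Vmn2r-ps159 bin still passed (log2 change 0.65, edgeR FDR 2.93e-07), while the Mucl2 bin had -0.12 (FDR 0.322) and the chromosome 11 bin 0.14 (FDR 0.181).

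Between 3 h and 10 h 1 bin passed (0.00211%), at 2784 of 47332 bins with an unadjusted edgeR p under 0.05. It lies inside Lyst, a regulator of lysosomal traffic, and had 7.97% and 8.96% for 3 h, 6.09% and 5.55% for 10 h, 6.17% and 5.77% for imminent division, and 6.30% and 6.78% in pre-S (log2 change -0.46, edgeR FDR 0.00887). Both 3 h libraries were above the other 6. The call was lost without 3 h replicate 2 (edgeR FDR 0.840) and without 10 h replicate 1 (0.390) or 2 (0.580). No bin passed with the DESeq2 Wald test, at 241 of 47332 bins with an unadjusted p under 0.05. This is fewer than chance alone would give, so that test was strict here.

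Between 10 h and pre-S 24 bins passed (0.0507%), 12 raised (0.0254%) and 12 lowered (0.0254%). The split was 112 to 35 with the offset within 2 Mb, 5 to 2 with the offset from neighbouring bins and 7480 to 6422 with TMM factors without the cis total. Of the 12 raised bins 3 were called with the offset within 2 Mb, 0 with that from neighbouring bins, 3 with the centring along GC and fragment number and 9 with TMM factors, and of the 12 lowered bins 4, 1, 6 and 11. All 24 kept their sign in these 4 settings. The leading raised bins lay inside Acer3, an alkaline ceramidase, inside Tanc2, a scaffold protein, and inside Brinp3. The Acer3 bin had 6.33% and 6.39% for 3 h, 5.46% and 5.74% for 10 h, 5.70% and 5.66% for imminent division, and 8.11% and 7.74% in pre-S (log2 change 0.47, edgeR FDR 0.00343). The Tanc2 bin had 5.45% and 5.09%, 4.89% and 5.29%, 5.15% and 5.32%, and 7.17% and 6.89% (log2 change 0.43, edgeR FDR 0.0101). The Brinp3 bin had 4.47% and 4.70%, 3.68% and 4.23%, 4.27% and 4.12%, and 5.80% and 6.31% (log2 change 0.57, edgeR FDR 0.0112). In all 3 bins the pre-S libraries were above every other library, imminent division included, but the difference from imminent division did not pass (edgeR FDR 0.545, 0.734 and 0.556). Leaving out 1 library of these 2 groups left between 4 calls (without 10 h replicate 1) and 12 (without 10 h replicate 2), with 6 without pre-S replicate 1 and 10 without pre-S replicate 2. Of the 12 raised bins 0 were called without 10 h replicate 1 or without pre-S replicate 2, 3 without 10 h replicate 2 and 2 without pre-S replicate 1. The DESeq2 Wald test gave 0, at 824 of 47332 bins with an unadjusted p under 0.05, again fewer than chance alone would give.

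Of the 12 lowered bins, 5 lay in one stretch of chromosome 15, beside or near bins that held no within-bin pair in either pre-S library. A single bin (chr15:56400019-56450276) and a run of 5 bins (chr15:69601058-69849993) had 0 within-bin pairs in both pre-S libraries against 136 to 435 in each of the other 6. Their cis contacts numbered 0 to 5 in pre-S and 2044 to 6284 elsewhere, and their interchromosomal contacts 24 to 99 against 875 to 3908. Nearly all contacts of these bins were thus missing in pre-S, and not the within-bin pairs alone. A count of 0 allows up to 3 counts, by counting error only. These bins were among the 8 left out. The bin to the left of the run held 40 and 34 within-bin pairs in pre-S against 179 to 325 elsewhere, and its share was 3.18% and 3.17% in pre-S, 7.74% and 6.80% for 3 h, 5.90% and 6.32% for 10 h, and 5.27% and 5.48% for imminent division (log2 change -0.98 from 10 h to pre-S, edgeR FDR 6.97e-05). The bin to its right had shares of 5.50% and 5.48% in pre-S and 5.71% and 5.32% at 10 h (log2 change -0.03, edgeR FDR 0.965). Both neighbours of the single empty bin were lowered from 10 h to pre-S, the left with a log2 change of -1.12 (edgeR FDR 0.00963) on 12 and 24 within-bin pairs in pre-S, and the right with one of -0.84 (edgeR FDR 0.000453) on 51 and 47. The cis totals of these lowered bins fell as well. Relative to the library's median bin, the bin left of the run had 0.377 and 0.369 in pre-S against 0.924 and 0.946 at 10 h. The left neighbour of the single bin had 0.237 and 0.239 against 0.678 and 0.662, and the right 0.425 and 0.436 against 0.801 and 0.796.

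**Figure D4:**
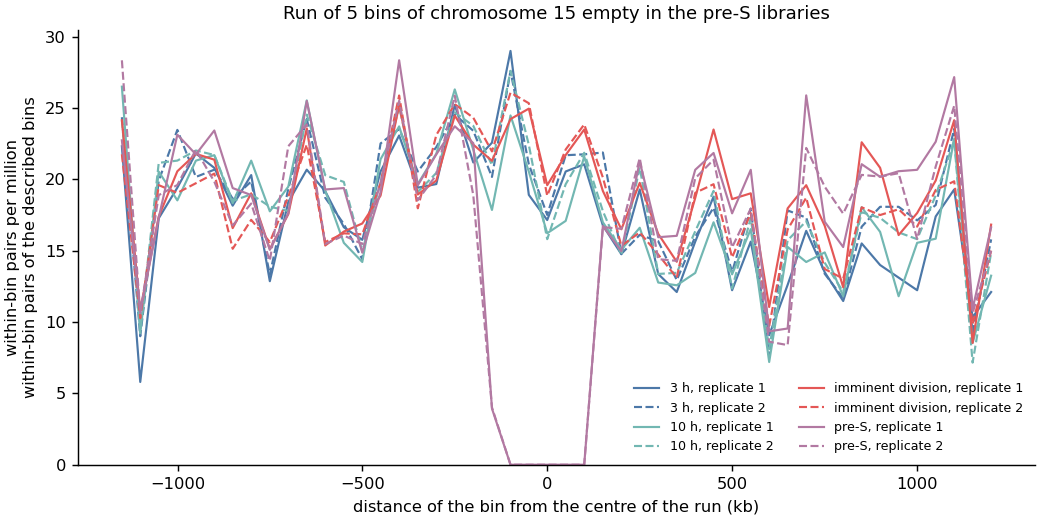
Within-bin pairs of single bins around the run of 5 bins on chromosome 15, per 1000000 within-bin pairs of the described bins (y axis), against distance from the centre of the run in kb (x axis). Lines are the 8 libraries, and both pre-S lines are at 0 over the run, at 16.7 in both libraries in the bin right of it (16.8 to 21.9 in the others), and below all 6 others at the called bin 649 kb right of the centre (9.55 and 8.39).

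The other 2 leading lowered bins of pre-S were also on chromosome 15. A bin across the ends of Wdyhv1 and Fbxo32, a substrate adaptor of a ubiquitin ligase, had 8.24% and 7.76% for 3 h, 7.14% and 6.94% for 10 h, 6.24% and 6.10% for imminent division, and 4.72% and 4.27% in pre-S (log2 change -0.67, edgeR FDR 3.43e-05). A bin without a protein-coding gene (chr15:70349875-70399925) had 5.98% and 7.42%, 6.47% and 6.17%, 5.34% and 5.51%, and 3.90% and 3.30% (log2 change -0.83, edgeR FDR 1.36e-05). The same 3 bins led the raised bins of imminent division versus pre-S (log2 changes of 1.04 left of the run, 0.73 and 0.86), where 23 bins passed in all (0.0486%), 17 raised (0.0359%) and 6 lowered (0.0127%). The split was 75 to 137 with TMM factors, 76 to 153 with DESeq2 size factors, 1 to 3 with the offset from neighbouring bins and 264 to 78 with that within 2 Mb. These comparisons share the pre-S libraries. Without the 302 described bins of the stretch and 1 Mb on either side, 10 bins passed in pre-S versus 10 h (5 raised, 5 lowered) and 8 in imminent division versus pre-S (5 raised, 3 lowered). The FDR was computed anew for this. The 302 bins themselves held 5 lowered and 0 raised calls of the first comparison and 7 raised and 0 lowered of the second. Calls outside them were thus lost as well, most raised calls of pre-S versus 10 h among them. The stretch differs with strain and gate, and these cannot be told apart.

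The 6 lowered bins of imminent division versus pre-S include the second of the 2 bins of highest share described last (10.2% and 11.6% against 16.9% and 16.7%, edgeR FDR 0.0474). With TMM factors, DESeq2 size factors, the offset from neighbouring bins, the offset within 2 Mb or the DESeq2 Wald test 0 of these 6 were called, with the sign kept in all 6. Of the 17 raised bins 10, 10, 0, 4 and 3 were called in the same order. The 3 leading lowered bins held no protein-coding gene or start. They lie on chromosome 3 (chr3:131050161-131100068), 11 (chr11:24900385-24949883) and 13 (chr13:41899716-41949326). The first had 4.66% and 5.02% at imminent division and 8.09% and 7.25% in pre-S, with 6.11% and 6.48% at 10 h (log2 change -0.38, edgeR FDR 0.0158). The second had 5.08% and 5.28% against 8.33% and 7.98% (log2 change -0.37, edgeR FDR 0.0169), and the third 5.51% and 5.65% against 8.73% and 8.74% (log2 change -0.36, edgeR FDR 0.0251). Leaving out 1 library of these 2 groups left between 4 calls (without pre-S replicate 1) and 10 (without imminent division replicate 1), with 6 without pre-S replicate 2 and 8 without imminent division replicate 2. Of the 6 lowered bins 2 were called without imminent division replicate 2 and 0 without each of the other 3 libraries.

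**Figure D5:**
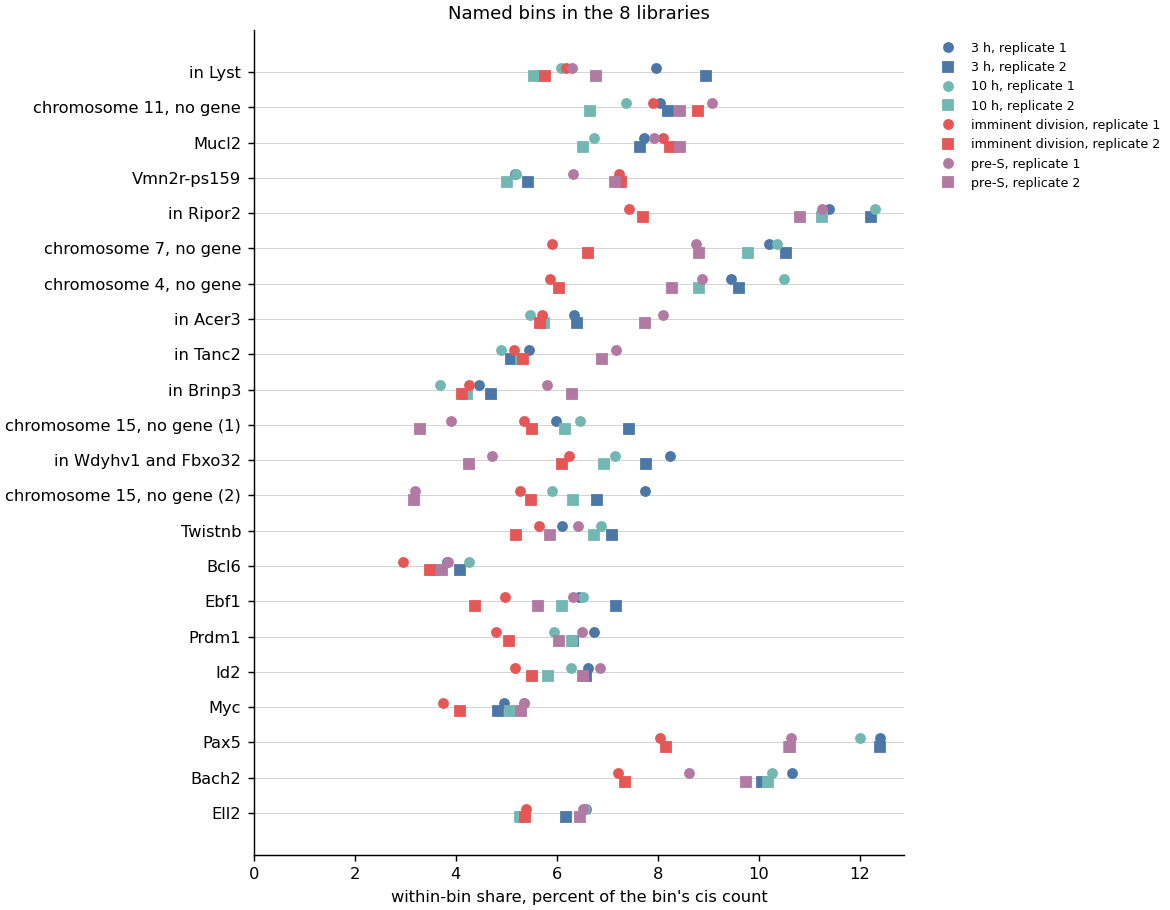
Within-bin share (x axis, percent of the cis count of the bin) of the leading called bins of the first 3 comparisons and of the 9 loci that the study discusses, with 1 row per bin named by gene where it has one and 1 point per library (circles replicate 1, squares replicate 2). The imminent division points of the Ripor2 bin (7.43% and 7.71%) lie left of the others, and those of the Vmn2r-ps159 bin (7.23% and 7.27%) right of the 3 h and 10 h points.

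The loci that the study discusses spanned most of the range of shares. The bin with the Pax5 start, a factor of B cell identity, was at percentile 99.8 of the described bins, with 12.4% in both 3 h libraries, 11.99% and 10.6% in those of 10 h, 8.04% and 8.16% at imminent division, and 10.6% and 10.6% in pre-S (centred log2 change -0.22 from 10 h to imminent division, edgeR FDR 0.0518). The bin with the start of Bach2, a repressor that restrains plasma cell differentiation, was at percentile 98.4, with 10.7% and 10.1%, 10.3% and 10.2%, 7.20% and 7.34%, and 8.62% and 9.75%. Of the 9 loci it alone passed (log2 change -0.24, edgeR FDR 0.0253), where 0.507% of all bins were lowered and 0.499% raised. The DESeq2 Wald test called 0 of the 240 lowered bins, the Bach2 bin included. The bin with the start of Bcl6, the repressor of the germinal centre programme, was at percentile 1.23, with 3.83% and 4.07%, 4.25% and 3.55%, 2.96% and 3.50%, and 3.85% and 3.73%. Both imminent division values were the lowest, the higher of them just under the lower 10 h value, and the centred change was 0.01 (edgeR FDR 0.976).

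The remaining loci lay between these. The bin with the start of Myc, the growth factor-induced regulator of cell growth, had 4.95% and 4.83% for 3 h, 5.36% and 5.07% for 10 h, 3.75% and 4.07% for imminent division, and 5.36% and 5.28% in pre-S. That of Twistnb, a subunit of RNA polymerase I, had 6.10% and 7.10%, 6.88% and 6.74%, 5.64% and 5.20%, and 6.43% and 5.86%. That of Prdm1, which encodes the plasma cell factor Blimp-1, had 6.74% and 6.33%, 5.94% and 6.31%, 4.80% and 5.06%, and 6.50% and 6.05%. In these 3 bins the imminent division libraries were below the other 6, as in 77.0% of all described bins and in those of Ebf1 and Id2. The centred changes of the 3 bins from 10 h were -0.15, -0.08 and -0.06 (edgeR FDR 0.422, 0.716 and 0.814). The bins of Ebf1, Id2 and Ell2, which encode a B cell identity factor, an inhibitor of E proteins and an elongation factor used in antibody secretion, had mean percentiles of 50.9, 59.4 and 54.8 and centred changes of -0.18, 0.08 and 0.14 (edgeR FDR 0.297, 0.708 and 0.518).

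Genes of immune cells, lymphoid and myeloid alike, lay in bins of high share of all cis contacts. This was not particular to them. At 3 h the median was 8.38% for cytoplasmic ribosomal protein genes and 8.76% for G1 cyclins, kinases and E2F genes. The lists were not measured with the denominator limited to 2 Mb, under which A minus B changed sign. The 14 bins of immediate early genes had a median share of 10.4% for 3 h, 9.42% for 10 h, 7.60% for imminent division and 9.65% in pre-S, and the 15 of lymphoid transcription factors had 9.94%, 9.34%, 7.05% and 9.14%. The 9 bins of B cell genes had 9.99%, 8.76%, 6.998% and 8.64%, the 8 of T cell genes 8.29%, 7.40%, 6.12% and 7.77%, and the 9 of myeloid genes 8.498%, 7.93%, 6.54% and 7.51%. Over all described bins the medians were 6.50%, 6.04%, 5.05% and 6.12%, and all 5 lists were in bins of higher GC than the typical bin. Their bins were 75% (T cell genes) or 100% in A, with a mean of 1.40 to 2.44 starts. Of these lists, the called bins from 10 h to imminent division were those with the starts of Irf4, a factor of plasmablast differentiation (9.48% and 10.3% to 7.03% and 7.08%, log2 change -0.24, edgeR FDR 0.0264), and of Egr3, an immediate early factor (11.9% and 11.4% to 8.22% and 8.13%, log2 change -0.25, edgeR FDR 0.0320). The 10 bins of NF-kappaB genes had 9.99% at 3 h and 6.98% at imminent division, with 0 called. Over all bins 0.499% were raised and 0.507% lowered.

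Cell cycle and growth genes lay in bins above the typical share of all described bins. These bins were 97.2% to 100% in A, with a mean of 1.86 to 2.92 starts. Bins of A and bins with starts had higher shares in general, as given above. None of the 14 bins of G1 cyclins, kinases and E2F genes (8.01% at 10 h and 6.52% at imminent division), of the 72 of cytoplasmic ribosomal protein genes (7.84% and 6.55%), of the 13 of RNA polymerase I genes (7.34% and 5.75%) or of the 16 of cohesin, condensin and CTCF genes (7.54% and 6.24%) was called in any comparison. Over all bins 1.01% were called from 10 h to imminent division, so that lists of this size hold few called bins or none at the background share. Of 18 bins of DNA replication genes (7.02% and 6.13%), that of Gins2, part of the GINS complex of the replicative helicase, was raised (8.71% and 6.70% to 7.75% and 7.66%, log2 change 0.28, edgeR FDR 0.0398). Of 15 bins of mitosis genes (7.60% and 6.06%), that of Bub1b was lowered (9.13% and 9.37% to 5.76% and 6.14%, log2 change -0.38, edgeR FDR 0.000178) and that of Bub1 raised (5.59% and 5.14% to 6.16% and 5.13%, log2 change 0.32, edgeR FDR 0.0206), both spindle checkpoint kinases. For Gins2 and Bub1 the shares as measured overlapped between the groups, and the call rests on the centring.

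Clustered gene families spanned a wide range of shares. The 565 described bins with olfactory receptor genes had a median share of 6.03% for 3 h, 5.56% for 10 h, 4.91% for imminent division and 5.84% in pre-S, and 7 of them were raised and 0 lowered from 10 h to imminent division (median centred change 0.07). In 3 of the 7 the shares as measured overlapped between the groups. Of 214 bins with vomeronasal receptor genes (6.05%, 5.61%, 5.03% and 5.94%) 5 were raised and 0 lowered, and 1 of the 5 overlapped as measured. Of 15 bins of histone genes 3 were raised, all in the Hist1 cluster of chromosome 13, and of 13 Hox bins 2 were raised, with a median centred change of 0.22 over the Hox bins. The Hist1 bin with the start of Hist1h4f and 8 other histone genes had 8.26% and 8.33% at 10 h and 8.40% and 8.49% at imminent division (log2 change 0.28, edgeR FDR 0.0136). The Hoxd9 to Hoxd13 bin had 4.67% and 4.66% at 10 h and 4.95% and 5.11% at imminent division (log2 change 0.36, edgeR FDR 0.0123). The other 2 called Hist1 bins had shares as measured that overlapped between the groups (6.97% and 5.76% against 6.17% and 6.64%, and 7.20% and 6.17% against 7.41% and 6.53%). The same held for the Hoxa13 bin, with 6.14% and 5.24% against 5.46% and 5.84%, so these 3 calls rest on the centring. Zinc finger genes (320 bins, 6.89% and 5.78%) had 3 raised and 1 lowered, 1 of the raised being an overlapping bin already counted with the olfactory receptors, and keratin genes (60 bins, 6.66% and 5.68%) 0 called. Across all bins, the background is 0.499% raised and 0.507% lowered.

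The highest mean shares were those of 2 neighbouring bins near the start of the assembled sequence of chromosome 6, the first with the start of Samd9l, an interferon-induced gene. The Samd9l bin had 16.2% and 17.6% for 3 h, 15.2% and 16.4% for 10 h, 11.2% and 12.2% for imminent division, and 15.6% and 16.4% in pre-S. It held 216 and 481 within-bin pairs in the 3 h libraries, where the median bin held 160 and 321. The cis total of its neighbour was 0.466 to 0.652 times that of the library's median bin, so a small denominator is part of that bin's high share. The bin with the start of Eif4enif1, a transporter of the cap-binding protein eIF4E, near the start of chromosome 11, came next, with 13.8% and 14.2%, 14.0% and 12.9%, 12.6% and 12.7%, and 15.04% and 14.7%. Of the 50 bins with the highest mean share, 49 were in A, 9 lay in the first 1 Mb of their chromosome and 1 in the last 1 Mb. Over all 47332 described bins, 45.7% were in A, 366 lay in the first 1 Mb and 386 in the last. The 3 lowest were all on chromosome 8 between 20100433 and 20649964, with 0.154% to 1.11% in each library, on 1 to 16 within-bin pairs, and interchromosomal counts 0.353 to 0.549 times the median bin's. At that depth their groups could not be told apart.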

How the data were processed

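In situ Hi-C with MboI was measured in 8 libraries. The deposited values are raw counts of read pairs per pair of 50 kb bins, 1 symmetric matrix with its diagonal per library. Per the labels and the study's methods, the authors processed reads with diffHic (mm10; bowtie2 for alignment, cutadapt for trimming), and filtered out duplicates, long fragments and the inward or outward pairs of dangling ends and self-circles. Those filters act on pairs at short distance, so a within-bin count is what they left. Without molecular identifiers, pairs cannot be taken as independent molecules, and limits on a count of 0 cover counting error only.

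The matrices name no coordinates. Bins were rebuilt from the MboI fragments of GRCm38 (53357, the number in each matrix), and 20807 autosomal protein-coding starts of GENCODE M21 were placed in them. Bins were left out for over 10% undetermined sequence, an interchromosomal count over 4 times or under 1/4 of the median, or under 100 cis contacts in a library; the last limit was set after the data were seen. Compartment signs came from principal component 1 of each chromosome's correlation matrix in 100 kb bins, with all libraries summed.

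Measures per library were tested with an exact permutation test of the between-group sum of squares, adjusted by Benjamini-Hochberg over 8 measures. Single bins were tested with the edgeR 4.0.16 quasi-likelihood framework (R 4.3.3, trended dispersion, robust) in a one-way layout over all 8 libraries, with the log cis count as offset, centred per library on the median log share. A self-test on simulated counts for imminent division versus 10 h, over 47332 bins, recovered 100% of 2-fold and 67.6% of 1.25-fold rises and 36.4% of 0.8-fold changes, with 10 false calls. Apart from the changed bins, each simulated bin kept 1 mean share in all libraries, without the group shift of the data. The simulated spread was close to counting error, so the false calls cannot tell how many real calls are false. Bins named are the 3 raised and 3 lowered with the smallest p in each comparison, the 3 highest and 3 lowest shares, and 9 loci of the study. Called members of gene lists and the bins beside the empty ones were named after their values were seen. The measures, bins and lists were chosen with earlier results of these data known. DESeq2 1.42.0, other offsets and scalings, filters, thinning, left-out libraries and a replicate block were tried as alternatives. Replicate numbers were not taken as pairs, since same-numbered libraries did not deviate together (every correlation within 0.012 of 0). Part of the sorting gate is not reported here.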

Additional observations from a re-analysis of the deposited data

How the results depend on the processing

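Under most alternatives the measures per library kept their direction and stayed on their side of the threshold, with the exceptions given here. Of the 8 measures per library, the difference of imminent division from 10 h with contacts within 2 Mb as denominator came to -5.92 percentage points for the pooled share, -3.98 for the median share, -0.037 for the spread of log2 shares, -0.0395 for the fragment difference, and 0.15 for A minus B, while the GC difference turned to 0.0657 and the gene start difference to 0.19, and all 7 then passed (adjusted p = 0.0327 to 0.0381). Over all autosomal bins with a cis count the spread (-0.00597) and the fragment difference (-0.00807) passed. Leaving out 1 library moved A minus B between -0.00391 (without imminent division replicate 2) and 0.0164, with -0.000392 without 10 h replicate 2. The ratio to adjacent bins has no value with either other denominator.

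In counts of called bins, with the comparisons in the order of 10 h to 3 h, of imminent division to 10 h, and of pre-S first to 10 h and then to imminent division, no centring gave 98, 29326, 9 and 33625; TMM factors without the cis total 0, 6331, 13902 and 212; DESeq2 size factors 0, 6307, 13875 and 229; the neighbour offset 0, 70, 7 and 4; the offset within 2 Mb 0, 5522, 147 and 342; the DESeq2 Wald test 0, 3, 0 and 3; and thinning 0, 32, 5 and 9. All autosomal bins gave 2 in the first comparison. Centring on GC and fragment number, chosen after seeing the data, gave 11 in the third, and with the replicate block 317 in the second and 11 in the third. Without the chromosome 15 stretch, also chosen after seeing the data and with the FDR computed anew, the third had 10 and the fourth 8. Leaving out 1 library gave 0 to 1, 48 to 476, 4 to 24 and 4 to 23. The replicate block alone gave 1, 481, 28 and 25 and changed no adjusted call among the measures, with adjusted p from 0.167 to 0.458. Its exact permutation test has 24 arrangements and a smallest p of 0.0417. After correction a measure could pass only with nearly all 8 at that floor, so the unchanged calls were close to fixed beforehand. The cause of these differences was not tested, except that thinned or left-out libraries hold fewer counts.

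The median bin held 160 to 321 pairs per library, and at this depth the self-test missed most of the smallest decreases and part of the smallest increases it simulated, so small changes of single bins can go uncalled.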
